A study of Mus musculus with 9 samples.

Results

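Within 5′ untranslated regions of mouse messenger RNAs, 1117 adenine (A) and cytosine (C) readings differed in dimethyl sulfate (DMS) signal between cells and refolded RNA. Each held at least 2 times as large a share of its amplicon's signal in untreated embryonic stem cells as in the same RNA refolded in vitro. They were chosen among 16187 A and C readings, of 32967 nucleotide readings of any base. A reading was taken when the mean of its 3 untreated values was at least 2 times the mean of its 3 in vitro values, when every untreated value exceeded every in vitro value, and when the untreated mean was 3000 or more. These readings, called members below, were thus chosen by their untreated and in vitro values, which are a description and carry no test. Because 81 positions qualified in both of 2 overlapping amplicons, the members stood for 1036 distinct positions. They lay in 150 of 161 amplicons and in all 69 transcripts, of which 68 could be given a gene symbol.

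The study probed conserved 5′ untranslated regions in E14 embryonic stem cells (genotype E14TG2a) with 250-nt cDNA amplicons, in 3 groups of 3 samples. Untreated cells were exposed for 6 min to 1.6% DMS, at 37 °C and with 250 mM bicine. ATP-depleted cells were first kept for 10 min with sodium azide (10 mM) and 2-deoxyglucose (10 mM), both also present afterwards, and then received the same DMS treatment. The third group was RNA refolded in vitro, whose refolding and DMS conditions the labels do not state. No sample without DMS was analysed, so the mutation background of a nucleotide was not measured.

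DMS methylates the Watson-Crick face of A and C where it is not engaged in a base pair, and reverse transcription over the methylated base leaves a mutation in the cDNA. A low signal marks a base that is paired or otherwise shielded, for example by a bound protein. In cells, 5′ untranslated regions are scanned by the small ribosomal subunit and contacted by helicases and other RNA-binding proteins, several of which use ATP, whereas refolded RNA has no such partners. A gain of DMS signal from refolded RNA to cells is the pattern of a base that is less protected in the cell. Only shares of an amplicon's signal were available here, and a share can also rise when other bases lose signal.

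The positions below carry the findings. The first lines show the 4 cytosines of Brd2, the bromodomain protein that binds acetylated histones, and the cytosine of Taok2, a protein kinase, that qualified with the largest folds in 2 overlapping amplicons. The next lines show further strong single members, and the last lines show 4 of the 5 largest runs of neighbouring members. A capital marks the named base in the single-base lines, where other members nearby stay in lower case, and all members of the run in the lines of runs. Letters are those of the cDNA (T for U), and numbers are transcript positions.
Brd2 C1570: agcgttcccgCcggtcccgca
Brd2 C1579: gccggtcccgCaacgaggctg
Brd2 C1582: ggtcccgcaaCgaggctgacg
Brd2 C1626: cttccccccaCttcccgggtt
Taok2 C517: ggccgtgcagCcgggcgtcct
Eif5 C180: gcggacgtcgCtgggacagtc
Smad6 C705: catcgtttcgCtggtggcttc
Mbnl1 C735: gagcacacggCtgagtccagg
Zc3h6 C283: ctgtcggcggCggccggggac
Ddx17 C644 to C654: aagttCttCtACAttCtagct
Ddx17 C865 to A872: ttgtaCCtaCtCAgggca
Zc3h6 C354 to C364: cgccgCcgCCggCCtCcagac
Sertad2 C138 to A151: tgttcCCgACtCgCAAgCAgagga

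Values are counts per 1000000 within one amplicon and sample (CPM), so they show where the signal lies in an amplicon and not how reactive the amplicon is as a whole. Recovered counts summed to between 9746013 and 12616275 per in-cell sample, and to 7143584, 5743965 and 10530190 in the 3 in vitro samples. The smallest single library, of an in vitro sample, held 96 counts. In amplicons where some library held under 5000 counts, 7.95% of A and C were members, against 6.47% in the 115 amplicons without one. A member had a median of 713 counts summed over the untreated samples and 111 over the in vitro samples, and 12 members had 0 counts in all 3 in vitro libraries. Those 12 lay in Nfe2l1, Tle4 and Ptms, and their folds are lower bounds of 1.20 to 10.4 if 3 counts summed over the 3 libraries are taken as the floor, with 9 of them at 2 or more.

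The members made up 6.9% of the A and C readings. The mirrored rule, with in vitro in place of untreated, took 603. The median fold of untreated over in vitro was 2.96 (2.95 with the 12 at their bounds), with quartiles of 2.36 and 4.19, and 303 members reached 4-fold. Their median over the 3-sample means was 5793 CPM in untreated cells, 4972 CPM in ATP-depleted cells and 1875 CPM in vitro. All A and C together had medians of 6633, 6427 and 6650 CPM in the same order. Members were thus at an ordinary level in cells and low in vitro, and 28 of them exceeded the in vitro median of all A and C. The wording "exposed only in cells" was not borne out for the whole group, since 264 members still had an in vitro mean of 3000 CPM or more, while 202 were under 1000 CPM.

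Sample by sample, the median over members was 5808, 5664 and 5703 CPM in the 3 untreated samples. It was 4796, 5015 and 5044 CPM in the 3 ATP-depleted samples. It was 1633, 1718 and 2090 CPM in the 3 in vitro samples. The 2 in-cell groups lay close together and far above the in vitro samples, with ATP-depleted samples below all untreated samples. The 12265 other A and C with an untreated mean of 3000 CPM or more had sample medians from 7254 to 8367 CPM and did not show this gap.

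**Figure D1:**
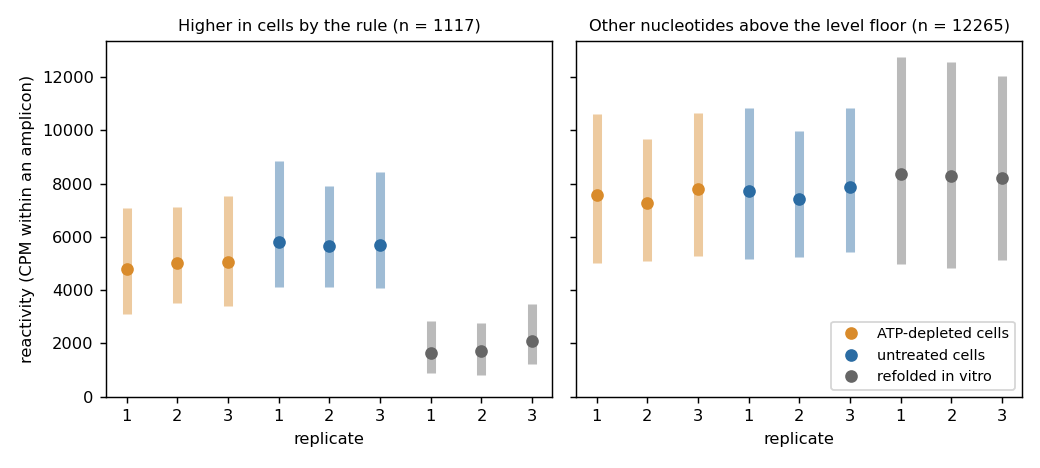
Level of members and of other A and C with an untreated mean of 3000 CPM or more, in each of the 9 samples (CPM, linear axis; points are sample medians and bars the quartiles). Member medians lie between 4796 and 5808 CPM in the 6 in-cell samples and between 1633 and 2090 CPM in the 3 in vitro samples; untreated and in vitro values chose the members.

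Cytosine made up most of the members. Of the 1117, 900 were C (80.6%) and 217 were A (19.4%), whereas C made up 57.7% of all A and C readings, 60.9% of the mirrored set and 48.6% of the other readings above 3000 CPM. As a share of each base, 9.63% of the C readings and 3.17% of the A readings were members. The mirrored rule took 3.93% of C and 3.45% of A, so it did not favour C in the same way. Adenine members were stronger in cells, with a median of 8078 CPM in untreated cells, 6668 CPM after ATP depletion and 2816 CPM in vitro. Cytosine members had medians of 5413, 4638 and 1676 CPM, and a larger median fold of untreated over in vitro (3.04 against 2.58 for A).

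The neighbouring bases differed between frequent and rare members. Among C readings above 3000 CPM, the C of GCG was a member in 16.5%, that of GCA in 16.1% and that of TCT in 15.6%. The lowest shares were 4.34% for ACA (16 members) and 8.46% for TCA. By the 5′ base alone, the share was 15.3% after G, 13.8% after C and 9.84% after A. Among A readings above 3000 CPM, CAG had 5.04% and TAC 4.81%, against 1.24% for TAA and 1.26% for TAG. A C preceded by G, a common arrangement in GC-rich leaders, was thus taken more often than a C preceded by A.

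Other sequence features separated members from other readings above 3000 CPM only weakly. A run of at least 3 C held 21.0% of the C members and 19.9% of the other C, and a run of at least 3 A held 15.7% of the A members and 19.5% of the other A. The triplet GGG lay within 5 nt of 13.9% of members and of 11.3% of the others. The A of an ATG triplet, the form of a start codon, accounted for 9 of the 217 A members (4.15%) and for 4.73% of the other A. The first and last 25 nt read in an amplicon held 24.0% of members and 26.0% of the others, so members did not crowd at amplicon ends. Members were not close to the transcript start more often either, with 4.21% at transcript position 100 or below against 4.78%.

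The predicted structure of the amplicons held a clearer difference. In the minimum free energy fold of the read part of each amplicon, computed from sequence alone, 71.9% of the C members were paired, against 53.8% of the other C above 3000 CPM and 61.3% of the mirrored C. Over all C readings the paired share was 62.4%. For A the shares were 52.1% of members, 39.4% of the others, 46.6% of the mirrored A and 40.7% of all A. The excess lay in helix interiors, which held 37.4% of C members against 23.6% of other C, and 36.4% of A members against 21.2% of other A. Over all readings, helix interiors held 30.6% of C and 22.6% of A. Helix ends held 34.4% against 30.2% for C and 15.7% against 18.3% for A. The median base-pair probability was 0.895 for C members and 0.586 for other C, and it was 0.613 for A members and 0.243 for other A. It was 0.766 over all C and 0.262 over all A. The 10 nt on either side were richer in G and C for members, with medians of 65% against 60% for C and 55% against 50% for A. Mirrored C also had a median of 65%, and mirrored A had 50%.

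Paired nucleotides were rarer at high signal in both sets, and members had lower untreated levels than the other readings. Between 3000 and 6000 CPM in untreated cells, 80.3% of 522 C members and 62.8% of other C were paired. At 6000 CPM or more, 60.3% of 378 C members and 46.1% of other C were paired. For A, the shares were 75.4% of 61 members against 54.7% in the lower range and 42.9% of 156 members against 36.4% in the upper one. The member share was the higher one in each of these 4 settings. Where every library of an amplicon held 5000 counts or more, 75.3% of C members and 53.0% of other C were paired. The fold was computed on the amplicon alone, without proteins or the rest of the transcript. Members were chosen for low in vitro values, and a low DMS signal is what a paired base gives. The compared readings were not matched for in vitro level. The larger paired share therefore describes the members and carries no test.

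**Figure D2:**
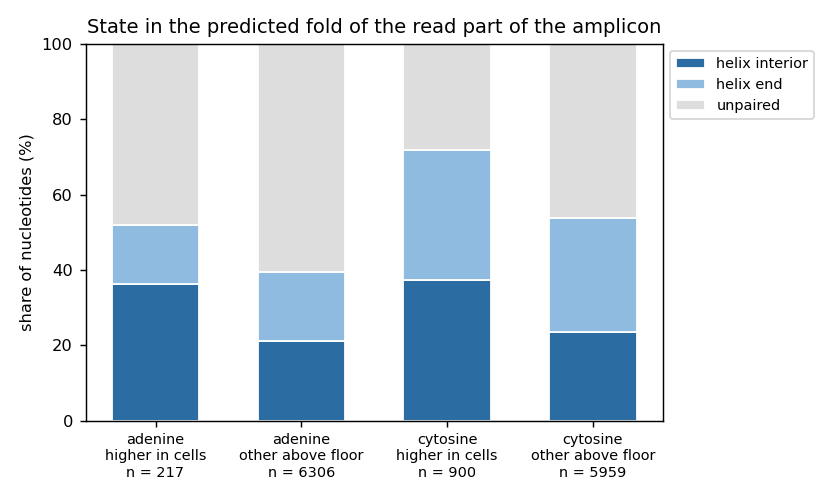
Share of nucleotides (percent) in helix interiors, at helix ends and unpaired in the predicted fold, as stacked bars for members and for other A and C with an untreated mean of 3000 CPM or more, by base. Paired members reach 71.9% for C and 52.1% for A, against 53.8% and 39.4% of the other readings. Low in vitro values helped to choose the members, and the other readings were not matched for them.

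Members lay near each other. Another member of the same amplicon stood at the adjacent nucleotide for 22.7% of members, within 3 nt for 40.0% and within 10 nt for 68.7%. The 15070 A and C that were not members, at any level, had a member at those distances in 4.79%, 14.6% and 36.4% of cases. In the mirrored set, 19.4%, 29.9% and 48.4% had another mirrored reading that close. When members at most 3 nt apart were joined, 670 members stood alone, and the others made 134 pairs (268 members), 26 triplets (78 members) and larger clusters, of which the largest held 10 members. Directly adjacent members were CC in 78 cases, CA in 24, AA in 20 and AC in 18.

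Nucleotides beside a member that did not qualify themselves were also shifted. The median log2 ratio of untreated over in vitro was 0.35 for A and C one base downstream and 0.16 one base upstream, against a median of -0.09 over all A and C that were not members. For G and U, which DMS modifies less readily at the pairing face, the median was 0.45 one base upstream, 0.44 one base downstream and 0.40 at 2 bases upstream, against 0.02 over all G and U. For A and C the shift was largest at the adjacent bases, with medians of -0.10 at 2 bases upstream and 0.02 at 2 bases downstream. For G and U it was largest within 2 nt and smaller farther away. Whether the signal of a member spreads to its neighbours in the counting of mutations was not tested, so the share of adjacent members above includes any such spread.

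**Figure D3:**
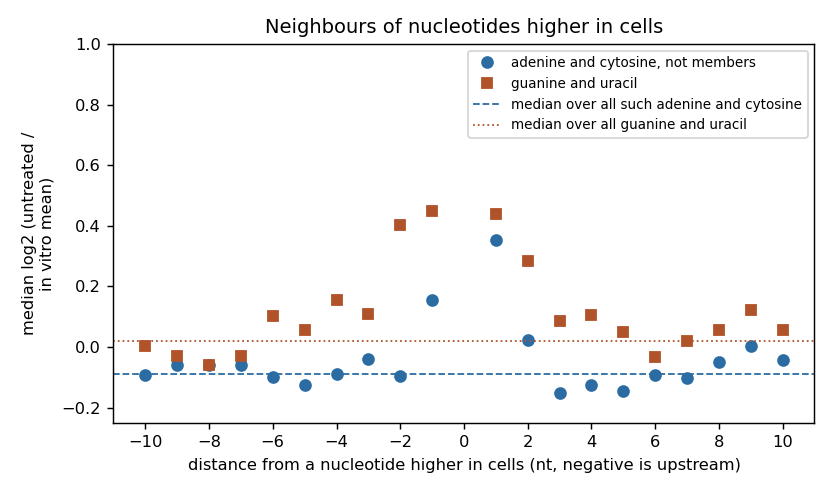
Median log2 ratio of untreated over in vitro means at each distance from a member (nt, negative upstream), for A and C that are not members and for G and U, with the median over all such nucleotides as lines. The medians stand at 0.35 for A and C and 0.44 for G and U one base downstream, and return towards -0.09 and 0.02 farther away.

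The clusters in Ddx17, a DEAD-box RNA helicase, were read deeply and lay away from amplicon ends. In the run C644 to C654, read in the amplicon of positions 503 to 753, the mean of its 6 members was 9598, 10172 and 11376 CPM in the untreated samples. It was 8488, 9383 and 10754 CPM in the ATP-depleted samples and 2284, 2758 and 3986 CPM in the in vitro samples. Across its members, the fold of ATP-depleted over in vitro ranged from 2.00 to 5.98. In the run C865 to A872 of the amplicon 731 to 981, the mean of 5 members was 9864, 11985 and 12525 CPM in untreated cells. It was 10794, 13048 and 13087 CPM after ATP depletion and 4620, 3344 and 4643 CPM in vitro. Both Ddx17 runs kept their in-cell level in the ATP-depleted samples, whose run means did not overlap those in vitro. For untreated samples, the rule itself required no overlap. The amplicon 503 to 753 held 21 mirrored readings against 10 members, and the amplicon 731 to 981 held 26 against 12. Both amplicons thus held readings of either direction. CPM within an amplicon have a fixed total, so gains at some bases are offset by losses at others.

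The GC-rich run C354 to C364 of Zc3h6, a CCCH zinc finger gene, had a mean over 6 members of 5410, 5215 and 4362 CPM in untreated cells. It had 5199, 4932 and 5715 CPM after ATP depletion and 1595, 1832 and 1660 CPM in vitro. That pattern was taken from the amplicon 219 to 469, and in the overlapping amplicon 183 to 433 the rule was met at C357 only. All 6 bases had a fold above 1 in that amplicon too. C354, C358 and C364 had 2.63, 3.66 and 1.99, but C361 and C362 had only 1.18 and 1.04. At C357 the fold was 3.76, from scattered values. They were 13744, 4196 and 3704 CPM untreated and 573, 1752 and 3432 CPM in vitro. The cluster of 10 members in Sertad2, which codes for a SERTA-domain transcriptional regulator, spanned C138 to A151 in the amplicon 111 to 361 and began 5 nt from the first nucleotide read. Its mean was 7327, 7211 and 7286 CPM in untreated cells, 4760, 5191 and 6288 CPM after ATP depletion, and 2746, 1884 and 3199 CPM in vitro. In the overlapping amplicon 47 to 297, only C138, C146 and C150 met the rule, and C139, C142, A148 and A151 had folds of 0.979, 0.778, 0.638 and 0.665. The second reading thus had a fold above 1 at all 6 Zc3h6 bases, though close to 1 at C362. It was below 1 at these 4 of the Sertad2 bases.

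The fifth cluster lay in Tle4, a Groucho-family co-repressor, at C596 to C603 of the amplicon 578 to 828, between 1 and 8 nt from the first nucleotide read. Its smallest library held 484 counts. The cluster mean was 32079, 30564 and 30612 CPM in untreated cells, 36093, 32250 and 26550 CPM after ATP depletion, and 6293, 8798 and 5456 CPM in vitro. C601 dominated it, with means of 114122 CPM untreated, 103420 CPM after depletion and 28520 CPM in vitro. The remaining bases of the cluster had untreated means from 3547 to 20219 CPM. Each of them had 0 or 1 count in every in vitro library. C603 had 0 counts in all 3 in vitro libraries there, which puts its fold at 10.4 or more. In the amplicon 479 to 729 the same C603 went the other way, with 9126, 14771 and 14097 CPM in untreated cells and 37557, 31724 and 31967 CPM in vitro. C596 and C601 met the rule in both amplicons.

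Where 2 amplicons overlapped, the other amplicon provided a reading that the choice of the first reading did not use, from separate libraries of the same RNA samples. Of 2637 such A and C positions, 270 met the rule in at least 1 amplicon and 81 in both (30%). Taken as 351 member readings, the median fold in the other amplicon was 2.25, against 0.964 over all doubly read A and C. The fold exceeded 1 for 315 readings (89.7%, against 46.5% over all). The rule was met again by 162 of the 351 (46.2%), against 6.66% of all doubly read A and C. These 162 are the 81 positions counted from either amplicon, so their other readings were themselves taken by the rule. The second reading thus gave the same direction for most members, with a smaller fold.

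In the other amplicon, limma called 177 of the 351 readings lower in vitro than in untreated cells and 2 higher, at a Benjamini-Hochberg adjusted p under 0.05, where 8.18% of all tested A and C were called lower. The median difference of in vitro minus untreated on the scale log2(CPM + 3197) was -0.59 for these readings and 0.0047 over all A and C. Without untreated replicate 2, 113 readings were called lower, where 735 of all 16178 tested A and C were. Many of these calls fell on readings that the rule had also taken. The 189 positions that qualified in 1 amplicon had a median fold of 1.60 in the other, with a range of 0.347 to 7.99, and 36 of them had a fold of 1 or less there. Limma called 34 of these 189 positions lower in vitro in the other amplicon. By base, 136 of 286 C readings and 26 of 65 A readings met the rule again. Agreement was more frequent where every library of both amplicons held 5000 counts or more, at 136 of 259 readings (52.5%), than elsewhere, at 26 of 92 (28.3%). In 4 amplicon pairs the starts were at most 10 nt apart, and the remaining pairs gave 128 of 299 (42.8%).

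**Figure D4:**
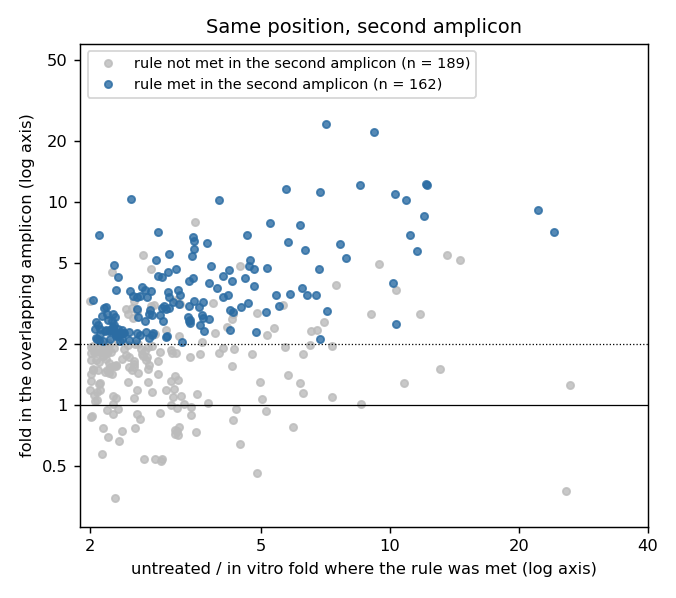
Fold of untreated over in vitro means in the amplicon where a position met the rule (x, log axis) and in the overlapping amplicon (y, log axis), one point for each of 351 member readings, so that a position meeting the rule in both amplicons appears with either as x. Points above the solid line at 1 are 315 of 351, and 162 meet the rule again; folds of the few readings with 0 in vitro counts rest on the 0.5 added to each count in the deposited values.

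A left-out replicate gave a similar picture. When the rule was applied without replicate 1, 1503 readings were taken, and in the left-out samples 53.7% of them were at least 2 times as high in untreated cells, against 16.3% of all A and C above 3000 CPM. Without replicate 2, 1420 were taken and 55.4% reached this fold, against 16.0%. Without replicate 3, 1575 were taken and 48.8% reached it, against 12.1%. The median fold in the left-out samples was 2.15, 2.25 and 1.97, below the median of 2.96 among the members themselves.

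Of the 5 positions that met the rule in both of 2 amplicons with the largest smaller fold, 4 were cytosines of Brd2. At C1570, untreated cells had 4496, 3749 and 3816 CPM in the amplicon 1524 to 1774, ATP-depleted cells had 4995, 3731 and 3528 CPM, and in vitro RNA had 203, 187 and 154 CPM. In the amplicon 1433 to 1683 the same base had 4151, 4484 and 4367 CPM untreated, 6938, 4200 and 4155 CPM after depletion, and 469, 343 and 606 CPM in vitro. Every in-cell value was several times every in vitro value in both amplicons. C1579, read in the amplicon 1433 to 1683, had 4905, 5885 and 5836 CPM untreated, 6227, 5636 and 5270 CPM after depletion, and 921, 235 and 202 CPM in vitro. C1582 lay beside it, with 6300, 7748 and 7527 CPM untreated, 7490, 6644 and 6793 CPM after depletion, and 695, 1464 and 369 CPM in vitro. In the overlapping amplicon their folds of untreated over in vitro were 12.1 each, against 12.2 and 8.53 here, so the size of the difference was similar in both libraries.

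C1626 of Brd2 stands between an A and a T, just downstream of a run of cytosines. In the amplicon 1524 to 1774 it had 3832, 4990 and 5119 CPM untreated, 2587, 3781 and 3091 CPM after depletion, and 40.6, 187 and 351 CPM in vitro. The fold of untreated over in vitro was 24.1 there and 7.11 in the amplicon 1433 to 1683. The in vitro counts behind the larger fold were 1, 2 and 12, which leaves its size loosely determined. Over the 60 A and C positions read in both of these amplicons, 10 were members in both and 8 in 1. In all, Brd2 held 48 members among 621 A and C.

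**Figure D5:**
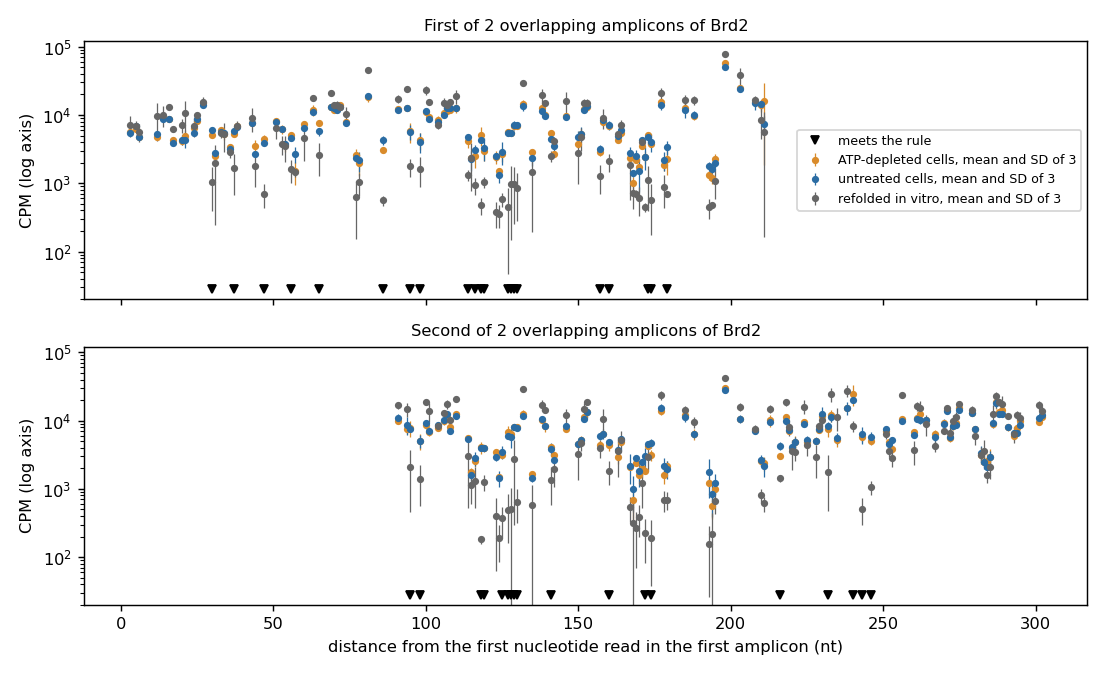
CPM (log axis, mean and SD of 3 samples) of A and C along 2 overlapping amplicons of Brd2, against the distance from the first nucleotide read in the first (nt), with triangles at members. In-cell means of both groups lie together and above the in vitro means at the members, and 10 of the 60 positions read in both amplicons are members in both.

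Taok2 C517, a base within a GC-rich stretch, also qualified in both of its amplicons. In the amplicon 375 to 625 it had 5263, 7406 and 8487 CPM untreated, 3937, 3935 and 4176 CPM after depletion, and 727, 447 and 887 CPM in vitro. The ATP-depleted values lay between the other groups without overlap. In the amplicon 440 to 690 it had 16383, 8075 and 5669 CPM untreated, 1859, 4009 and 2634 CPM after depletion, and 647, 616 and 1497 CPM in vitro, with in-cell values more scattered than in the first amplicon.

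Among members whose amplicon held 5000 counts or more in each library, the largest fold was 26.3 at Taok2 C466, 6 nt from the first nucleotide read. Its untreated values were 19907, 5033 and 1735 CPM, with the first far above the others, its ATP-depleted values were 3010, 2188 and 2938 CPM, and its in vitro values were 647, 237 and 128 CPM. In the second amplicon its fold was 1.25. E2f3 C282, in the leader of a cell-cycle transcription factor, was similarly uneven with 8831, 2311 and 2824 CPM untreated and 25.8, 291 and 243 CPM in vitro. Its ATP-depleted values were 222, 735 and 2263 CPM, so that the first overlapped the in vitro values. At both bases 1 untreated sample was far above the other two. Steadier values were found in the leader of Eif5, the factor that triggers GTP hydrolysis at the start codon. Its C180 had 4232, 3568 and 3826 CPM untreated, 2819, 2726 and 2807 CPM after depletion, and 217, 260 and 533 CPM in vitro. The smallest library behind it held 85348 counts, and no groups overlapped.

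In Smad6, an inhibitor of bone morphogenetic protein signalling, C705 had 5398, 3522 and 3732 CPM untreated, 3088, 4883 and 3882 CPM after depletion, and 531, 365 and 177 CPM in vitro. Smad6 C981 had 3169, 4053 and 3306 CPM untreated, 625, 3806 and 1681 CPM after depletion, and 213, 208 and 186 CPM in vitro. The in-cell groups overlapped at C705, whereas at C981 the ATP-depleted values were scattered. Mbnl1 C735, in the leader of a splicing regulator, had 8541, 5673 and 4960 CPM untreated, 7622, 3637 and 2927 CPM after depletion, and 438, 204 and 623 CPM in vitro. Zc3h6 C283 had 1524, 4390 and 3996 CPM untreated, 2724, 5394 and 4409 CPM after depletion, and 309, 187 and 184 CPM in vitro. At both bases every in-cell value stood above every in vitro value.

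Azin1, which codes for antizyme inhibitor of the polyamine pathway, held 2 of the strongest members in 1 amplicon. C91 had 2144, 3503 and 3695 CPM untreated, 1681, 3454 and 4201 CPM after depletion, and 163, 404 and 30.3 CPM in vitro. C191 had 3225, 3198 and 3478 CPM untreated, 499.8, 1988 and 3020 CPM after depletion, and 163, 288 and 393 CPM in vitro. ATP-depleted cells matched untreated ones at C91 and lay below them at C191. Ncdn C226, 4 nt from the read end, had 7655, 8757 and 8527 CPM untreated, 5372, 5717 and 8409 CPM after depletion, and 420.2, 281 and 1566 CPM in vitro. Near the threshold, Ppp1r10 C147 and Smad6 C649 were just inside at 2.00-fold, and Ppp1r10 C402 and Eed C279 were just outside, also at 2.00-fold after rounding. Ppp1r10 C147 had 5381, 6497 and 5882 CPM untreated against 2659, 3295 and 2923 CPM in vitro, so this member at the threshold differed evenly across replicates. Smad6 C649 had 5424, 6931 and 4507 CPM untreated against 2911, 3007 and 2510 CPM in vitro. Just outside, Ppp1r10 C402 had 5568, 6652 and 7862 CPM untreated against 4541, 787 and 4723 CPM in vitro, and Eed C279 had 6290, 6612 and 6087 CPM against 6007, 1138 and 2358 CPM.

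ATP depletion left most members near their untreated level. The mean after depletion was above the in vitro mean at 1110 members and below it at 7. With ATP-depleted in place of untreated samples, the rule was met by 650 of the 1117 members (58.2%), against 5.59% of all A and C and 6.19% of those with an untreated mean of 3000 CPM or more. This held alike for A (124 of 217, 57.1%) and C (526 of 900, 58.4%). Every ATP-depleted value exceeded every in vitro value at 874 members, where this was so for 15.6% of all A and C. On a log scale, 1015 members lay nearer to untreated than to in vitro and 102 nearer to in vitro or at the midpoint. The rule had set those means at least 2-fold apart. No share over all A and C is given for this count or for the 1110. The in vitro values that chose the members also enter these counts, so both in-cell groups are set against the same in vitro samples.

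Limma called 626 of the 1117 members lower in vitro than after ATP depletion and 0 higher (Benjamini-Hochberg adjusted p under 0.05), where 6.56% of all tested A and C were called lower. The low in vitro values that chose the members enter this fit too, so the count describes the members and is no test of them. Unadjusted p was under 0.05 for 887 members lower and 0 higher, where 2194 of 16178 tested A and C were lower and 2704 higher. The median difference of in vitro minus ATP-depleted was -0.65 for members and 0.029 over all A and C on the scale log2(CPM + 3197). Over all A and C, 1345 were called higher and 1061 lower, and 822 higher and 1504 lower when each amplicon was divided by its mean. Leaving out ATP-depleted replicate 1, 2 or 3 lowered the calls over all A and C from 2406 to 1371, 1007 and 1245. The members called fell to 324 without ATP-depleted replicate 2 and to 361 without replicate 3. Among all tested A and C, 445 and 493 were called lower in vitro in these fits.

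Between the in-cell groups, limma called 0 of 16178 A and C, members included (0.0%; smallest adjusted p = 0.999943). At an unadjusted p under 0.05, 128 members were lower after ATP depletion and 7 higher, where 2.71% of all A and C were lower and 1.22% higher. The ATP-depleted mean was below the untreated mean at 869 members, and the median ratio of ATP-depleted over untreated was 0.871, with quartiles of 0.720 and 0.982. Other A and C above 3000 CPM had a median ratio of 0.976, and 56.5% of them were below the untreated mean. All 3 ATP-depleted values lay below all 3 untreated values at 190 members, against 7.92% of all A and C, and above them at 20, against 4.45%. Because high untreated values chose the members, a lower mean in samples that did not take part in the choice carries no test here.

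The lowest ratios were sought among members with at least 20 counts in every in-cell sample. They were those of Ncdn C221, Taok2 C517 in the amplicon 440 to 690, and Sema6a A562. Ncdn C221 had 17981, 9272 and 11111 CPM untreated and 1361, 4612 and 4378 CPM after depletion, near its in vitro values of 3916, 458 and 4079 CPM. Sema6a A562, in the leader of a semaphorin, had 19970, 3888 and 8223 CPM untreated and 4954, 3406 and 1366 CPM after depletion. In each of these readings, the first untreated sample was the highest one. For Taok2 C517 in the amplicon 375 to 625 it was instead the lowest, and the ratio was 0.569. Among the highest ratios was that of Sema6a C575. This cytosine had 17262, 6149 and 12966 CPM after depletion and 9378, 6182 and 7263 CPM untreated, so these groups overlapped.

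Members were spread unevenly over genes. Rarg, a retinoic acid receptor, had 24 members of 117 A and C (20.5%), and Tle4 had 44 of 228 (19.3%), but both had libraries of under 1000 counts. Eed, a core subunit of Polycomb repressive complex 2, had 26 of 187, of which 16 lay in an amplicon whose smallest library held 478 counts. Eif5 had 45 of 329 and Cnot3, of the CCR4-NOT deadenylase complex, 30 of 226, all from larger libraries. At the other end, Rnf10, a ubiquitin ligase, had 4 of 370, Chd2 2 of 179 and Nlk 1 of 72. The 5 amplicons with the highest shares were Eif5 116 to 366 (25 of 100), Tle4 479 to 729 (23 of 105), Brd2 1433 to 1683 (21 of 99), Rarg 250 to 500 (24 of 117) and Ext1 210 to 460 (18 of 90). The Eif5 amplicon also held 23 readings of the mirrored set. With a fixed CPM total, gains and losses offset each other there too. No member lay in 11 amplicons, among them Brd2 1023 to 1273 and both amplicons of Rnf10 at 107 to 357 and 275 to 525.

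By groups of genes, transcription factors and co-repressors (Nfe2l1, Rarg, Smad6, Tle4) had 127 members of 999 A and C (12.7%). Genes of RNA binding and translation (Azin1, Ddx17, Eif5, R3hdm1) had 141 of 1331 (10.6%). Chromatin genes (Brd2, Chd2, Eed, Jmjd1c, Kdm2a, Kmt2e) had 130 of 1942 (6.69%), and the kinase and phosphatase genes Mapk6 and Ptprg had 29 of 483 (6.00%). Genes of the ubiquitin system (Rnf10, Tulp4, Ube4b) had 37 of 947 (3.91%). The overall share was 6.9%, and members of a gene lie in few amplicons, so these shares describe single leaders more than gene groups. Over all members, 58.2% met the rule after depletion. By gene, the counts were 41 of 48 in Brd2, 36 of 46 in Ext1, a heparan sulfate polymerase gene, 14 of 32 in Nfe2l1 and 8 of 24 in Sertad2. The median ratio of ATP-depleted over untreated was 0.973 in Brd2 and 0.762 in Sertad2, against 0.871 over all members. Members of a gene are not replicates, and limma called 0 A and C between the in-cell groups. Whether the response to ATP depletion differed between genes was not tested.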

How the data were processed

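The deposited table holds log2 values made by the authors, one per nucleotide, amplicon and sample; this unit was worked out from the values. The submitters' processing notes name bcl2fastq, Bowtie2 and limma; for the mutation counter and genome build, names were not given in the sources used here. With 0.5 added to a count and the sum scaled to the library as CPM, the log2 values gave back whole counts in 1449 of 1449 libraries (tolerance 0.0001). They are taken to be mutation counts. They come from PCR reads, not molecules, so they show counting error only. Per the labels, 3 independent samples were collected per condition.

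Values were returned to CPM, since the planned test assumed linear values. A and C with a count in at least 1 sample (16178 of 16187) were tested on log2(CPM + 3197), a pseudocount of 0.5 times the pooled median, with limma 3.58.1 in R 4.3.3. One mean per group was fitted to all 9 samples, two-sided, with Benjamini-Hochberg adjustment at 0.05. Fold changes on this scale are understated at low values. The limma step was tested on simulated data. Amplicons were folded with ViennaRNA 2.7.2 at 37 °C. Symbols come from the RefSeq table of GRCm38.p6.

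Members, gene lists and naming rule were chosen with earlier results of these data known. Named were the 12 largest folds in amplicons of at least 5000 counts (at most 2 per transcript), the 5 largest clusters, the 5 largest folds met in 2 amplicons, the 3 highest and 3 lowest ratios of ATP-depleted over untreated with at least 20 counts, and readings nearest the threshold. Of the 3 highest ratios, 1 is reported here. Single genes and sites beyond these were chosen after their values were seen. Alternatives varied the thresholds, pseudocount, scaling, depth, read ends and replicates, and comparisons at split untreated levels were added after seeing the data.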

Additional observations from a re-analysis of the deposited data

Results flagged for a closer look

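DMS signal at G and T (U in RNA) was outside the comparisons above. The same rule was met by 415 G and T readings, of which 364 were T (5.14% of 7088) and 51 were G (0.526% of 9692). Their median fold of untreated over in vitro was 2.84 for T and 3.21 for G, and their median ratio of ATP-depleted over untreated was 0.998 for T and 0.668 for G. No sample without DMS was analysed, and whether these readings are DMS modifications was not tested.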

How the results depend on the processing

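The number of members was 1117, and it was 1715 at a fold of 1.5, 547 at a fold of 3 and 534 at an untreated mean of 6000 CPM or more. Leaving out 1 sample gave 1200 to 1496. Thinning to the smallest library of an amplicon gave 1129, of which 950 were among the original members, and dividing each amplicon by its mean gave 1356, of which 1085 were. Without low values, limma called 1264 A and C in place of 2406 between in vitro and ATP-depleted, 129 members (of 212 tested) lower in vitro in place of 626, and 28 second readings (of 71 tested) in place of 177; fewer readings were tested there. Leaving out 1 sample gave ranges of 1007 to 2371, 324 to 613 and 113 to 158 for these counts, and 0 throughout for ATP-depleted against untreated. The replicate block gave 1995, 561, 158 and 0 in the same order; deviations of samples sharing a number correlated between -0.018 and 0.10, not every sample correlated best with its own number, and the numbers were not taken as pairs. Of 488 values at 61 named readings, 2 moved by more than the replicate SD and none changed direction. Cytosine made up 70.8% of members at 6000 CPM or more and 85.4% at a fold of 3. Depth in vitro limits single folds, since 138 members had 0 counts in at least 1 in vitro sample, and 42 had 1 to 3 in vitro counts in all.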
